A study of Arabidopsis thaliana with 16 samples.

Results

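The WRKY transcription factor family of Arabidopsis thaliana was examined in seedlings exposed to gaseous ethanol. The 42 genes were chosen by their locus codes in the TAIR nomenclature from the 27416 genes of the deposited count table. Of these, 36 had enough counts to test among the 18419 genes tested. The study measured RNA from whole seedlings by Lasy-Seq, which reads mostly the 3′ ends of transcripts and pools libraries after an early barcode. The ecotype was not given in the sources used here, but all seedlings grew on agar plates at 22 °C under 16 h of light per day.

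The EtOH_3d group, 4 libraries, was exposed to ethanol for 3 d, beginning at 11 d of age. The moc_3d group, 3 libraries used, is its control of the same duration and age. The EtOH_1d group, 4 libraries, was exposed to ethanol for 1 d, beginning at 13 d of age, and the moc_1d group, 3 libraries used, is its control. Both exposures therefore ended at an age of 14 d. The labels do not spell out moc, and they do not say what the control plates received. They also do not say whether replicates were separate plates, or how many seedlings a library pools, so the p-values speak only of the spread among these libraries, part or all of which may be technical.

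WRKY proteins are plant transcription factors with a conserved DNA-binding domain, named after the amino acids at its start, and bind a short element called the W-box. They are divided into group I, whose members carry a pair of WRKY domains, group II with the subgroups IIa to IIe, and group III, by their domains and zinc-finger types. Many are switched on within minutes to hours by microbial molecules, wounding, touch, reactive oxygen or salicylic acid, often through MAP kinase cascades, and others act in phosphate supply, senescence, trichomes and seed coat.

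Total counts were 3695511 to 6340751 in EtOH_3d, 5407735 to 7696919 in moc_3d, 5659976 to 15943927 in EtOH_1d and 6056980 to 11458250 in moc_1d. Replicate 1 of moc_1d and replicate 3 of moc_3d held equal counts for all 27416 genes, and both columns were left out. Leaf markers (10 genes) summed to 71907 to 78129 CPM and root markers (12 genes) to 147 to 217 CPM over the 14 libraries, so RNA of both organs was present. CPM is each count scaled to one common library total after TMM adjustment. The library moc_3d replicate 1 stood apart in the touch and wound genes, with values given beside the WRKY genes below. It also had the highest root marker sum, at 217 CPM against 147 to 184 CPM in the other libraries. The root marker IRT1 was at 82.1 CPM there, against 22.5 to 57.1 CPM in the other libraries. In whole seedlings, more cells of a type and more RNA per cell cannot be told apart.

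None of the 36 tested WRKY genes passed the test for ethanol at either duration, against 0.554% of all genes tested at 3 d and 0% at 1 d. The WRKY genes that did pass a test separated the durations, WRKY22 in ethanol and in control seedlings, and WRKY15 and WRKY7 in ethanol seedlings. Each was higher at 3 d. A gene was called where the edgeR quasi-likelihood test gave a Benjamini-Hochberg adjusted p under 0.05 over all genes tested.

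The members with too few counts to test came from subgroup IIc (WRKY50), subgroup IId (WRKY74) and group III (WRKY30, WRKY38, WRKY41 and WRKY55). Their counts summed over the 14 libraries lay between 8 for WRKY55 and 60 for WRKY74, with at most 14 counts in any library. WRKY41 reached 4 counts and was seen in 9 of the 14 libraries, and WRKY55 reached 3 counts and was seen in 4. These genes were not tested. The 42 chosen genes are not the whole family, and the subgroup counts here are of chosen genes only. Among them, only WRKY46 and WRKY53 of group III were tested. All 10 chosen genes of group I were tested, as were all 3 of IIa, both of IIb and all 5 of IIe. In IIc 8 of 9 chosen genes were tested, and in IId 6 of 7.

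The comparison of ethanol seedlings of 3 d with those of 1 d asked which WRKY genes differ with the length and start of the exposure. In edgeR, 3 of 36 members were called, all higher at 3 d, against 1% of all genes tested in either direction and 0.635% on the higher side. WRKY22 (AT4G01250), a subgroup IIe factor that acts below the flagellin receptor FLS2 and its MAP kinases in innate immunity, had 19.7, 20.4, 15.0 and 14.4 CPM in EtOH_3d, against 7.01, 9.59, 6.66 and 12.9 CPM in EtOH_1d. Every library of 3 d lay above every library of 1 d. Its log2 fold change was 0.95 ± 0.18 (SE, edgeR, adjusted p = 0.00141), with group means of 17.4 ± 3.1 CPM in EtOH_3d and 9.05 ± 2.90 CPM in EtOH_1d (SD, n = 4 each). WRKY22 lies at chr4:522530-524249 on the minus strand of TAIR10.1, with 3 exons.

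WRKY15 (AT2G23320), a subgroup IId factor induced by reactive oxygen and linked to salt and oxidative stress, had 68.1, 74.4, 69.8 and 65.8 CPM in EtOH_3d, against 55.4, 53.7, 52.9 and 48.0 CPM in EtOH_1d. The groups did not overlap, and the log2 fold change was 0.40 ± 0.08 (SE, edgeR, adjusted p = 0.00206). WRKY15 lies at chr2:9924886-9926372 on the plus strand. WRKY7 (AT4G24240), another member of IId, a calmodulin-binding factor that restrains defence, had 19.9, 19.1, 21.4 and 17.0 CPM in EtOH_3d, against 13.2, 13.6, 15.1 and 12.4 CPM in EtOH_1d. These groups did not overlap either, and its log2 fold change was 0.52 ± 0.13 (SE, edgeR, adjusted p = 0.0342). WRKY7 lies at chr4:12571538-12573783 on the plus strand. None of these 3 loci overlaps another counted gene in the annotation.

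The calls of WRKY22 and WRKY15 were kept in each of the 14 fits that left out 1 library. That of WRKY7 was lost in edgeR without EtOH_3d replicate 1 (adjusted p = 0.0940), replicate 2 (0.0576) or replicate 3 (0.157), and without EtOH_1d replicate 1 (0.110), replicate 2 (0.0612) or replicate 4 (0.122), with log2 fold changes between 0.46 and 0.58 over all such fits.

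To show what lies in front of the called members, the 300 bases before the annotated start of each are printed from TAIR10.1, 5′ to 3′ on the strand of the gene, with W-boxes in capitals. A W-box was searched for as TTGACC or TTGACT on both strands, so that it reads GGTCAA or AGTCAA where it faces the other way. WRKY33, a member described further on, is printed with them because it had the most W-boxes among the tested members. The windows are chr4:524250-524549 for WRKY22, chr2:9924586-9924885 for WRKY15, chr4:12571238-12571537 for WRKY7 and chr2:16107935-16108234 for WRKY33.
WRKY22: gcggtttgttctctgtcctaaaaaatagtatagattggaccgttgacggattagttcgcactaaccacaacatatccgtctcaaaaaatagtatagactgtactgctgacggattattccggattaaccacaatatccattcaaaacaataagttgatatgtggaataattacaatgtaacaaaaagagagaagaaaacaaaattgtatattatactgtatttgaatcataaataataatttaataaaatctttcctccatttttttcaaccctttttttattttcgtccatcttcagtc
WRKY15: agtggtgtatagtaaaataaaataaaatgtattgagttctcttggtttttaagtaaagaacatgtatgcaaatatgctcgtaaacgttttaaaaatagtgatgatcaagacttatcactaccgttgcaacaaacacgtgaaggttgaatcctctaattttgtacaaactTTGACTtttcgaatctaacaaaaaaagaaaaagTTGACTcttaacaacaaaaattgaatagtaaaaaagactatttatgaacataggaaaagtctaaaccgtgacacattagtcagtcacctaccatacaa
WRKY7: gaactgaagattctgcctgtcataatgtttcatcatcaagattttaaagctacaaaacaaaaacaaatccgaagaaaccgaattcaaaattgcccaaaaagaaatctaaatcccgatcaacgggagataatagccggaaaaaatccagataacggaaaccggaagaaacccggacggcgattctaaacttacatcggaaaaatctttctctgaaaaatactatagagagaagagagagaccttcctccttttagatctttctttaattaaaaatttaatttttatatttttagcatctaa
WRKY33: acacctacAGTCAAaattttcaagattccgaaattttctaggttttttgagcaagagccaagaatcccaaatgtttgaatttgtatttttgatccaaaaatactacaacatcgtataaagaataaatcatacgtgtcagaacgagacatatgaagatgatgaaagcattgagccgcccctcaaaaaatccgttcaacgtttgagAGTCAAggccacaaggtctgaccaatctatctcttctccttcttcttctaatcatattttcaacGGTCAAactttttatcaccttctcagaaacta

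WRKY15 had 2 W-boxes that began 131 and 98 bases before its start, both as TTGACT. WRKY33 had 3 on the other strand, which began 292, 96 and 32 bases before its start. No such letters stood in the windows of WRKY22 and WRKY7. At least 1 W-box stood before 15 of the 36 tested members (41.7%), against 5794 of 18244 tested genes with an entry in the annotation (31.8%), and 2 or more before 7 members (19.4%), against 7.49% of those genes. These counts describe letters in a window and show neither binding nor use.

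Among members that were not called, WRKY18 of subgroup IIa came closest in ethanol seedlings. WRKY18 forms complexes with WRKY40 and WRKY60 that repress defence against biotrophic pathogens and take part in abscisic acid signalling. WRKY18 (AT4G31800) had 13.8, 9.94, 9.14 and 8.68 CPM in EtOH_3d, against 5.90, 5.97, 7.26 and 6.41 CPM in EtOH_1d. The groups did not overlap, and the log2 fold change was 0.70 ± 0.20 (SE, edgeR, adjusted p = 0.0777). It passed the threshold in edgeR without moc_3d replicate 1, a library of neither group that enters the shared estimate of spread (adjusted p = 0.0432), with no filter on low counts (0.0241) and in a fit to these groups alone (0.0425).

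At an unadjusted p under 0.05 in edgeR, 8 of 36 members were past the threshold, all with a positive log2 fold change, against 10.2% of all genes in either direction and 5.2% with a positive one. Beside the 4 genes above, these were WRKY25 (0.49 ± 0.17, SE), WRKY33 (0.65 ± 0.22), WRKY53 (0.45 ± 0.21) and WRKY46 (0.73 ± 0.35), with edgeR adjusted p between 0.197 and 0.458. Libraries did not overlap in 7 members (19.4%), against 5.9% of all genes. These were WRKY22, WRKY15, WRKY7, WRKY18 and WRKY46 on the higher side and WRKY57 and WRKY39 on the lower side. WRKY57 (AT1G69310), a factor in drought tolerance, had 4.84 to 5.95 CPM in EtOH_3d and 6.30 to 7.42 CPM in EtOH_1d. WRKY39 (AT3G04670), a factor in heat tolerance, had 26.8 to 32.4 CPM in EtOH_3d and 32.5 to 35.2 CPM in EtOH_1d. Their log2 fold changes were -0.37 ± 0.21 for WRKY57 and -0.20 ± 0.10 for WRKY39 (SE), with edgeR adjusted p of 0.590 and 0.494. The median log2 fold change was 0.02 over the 36 members and -0.00092 over all genes tested, with 19 members positive (52.8%, against 49.8% of all genes) and 17 negative.

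**Figure D1:**
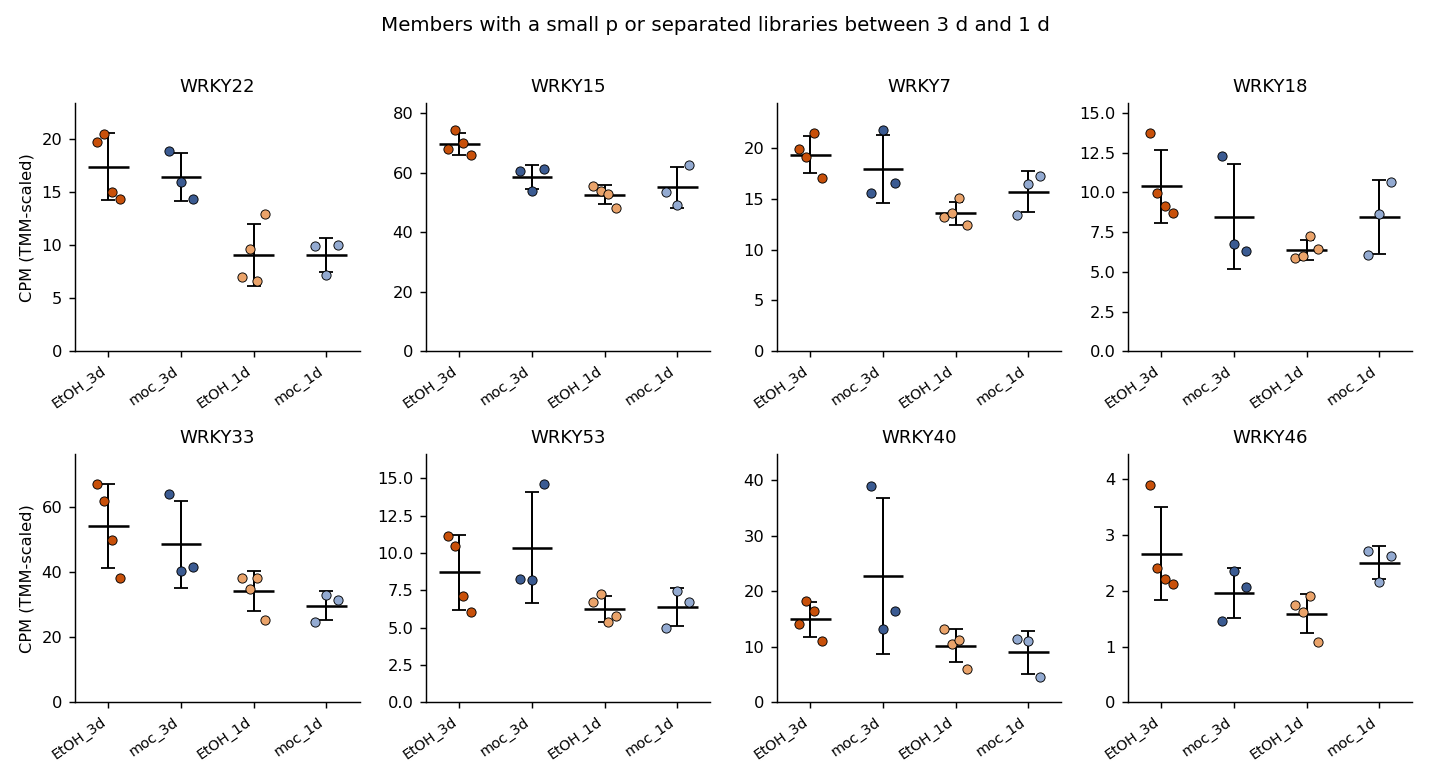
Levels of 8 WRKY genes in CPM, with each library as a point, the horizontal bar as the group mean and the whiskers as 1 SD (n = 4, 3, 4 and 3 from left to right). WRKY22 lies at 14.4 CPM or more in all libraries of 3 d and at 12.9 CPM or less in all libraries of 1 d, and 1 moc_3d library of WRKY40 stands at 39.0 CPM.

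The same contrast of durations in control seedlings called 1 of 36 members, against 0.842% of all genes in either direction and 0.527% on the higher side. WRKY22 had 18.8, 15.9 and 14.4 CPM in moc_3d, against 9.90, 7.22 and 10.0 CPM in moc_1d. The groups did not overlap, and the log2 fold change was 0.85 ± 0.20 (SE, edgeR, adjusted p = 0.0217). Group means were 16.4 ± 2.3 CPM in moc_3d and 9.04 ± 1.58 CPM in moc_1d (SD, n = 3 each). The call was lost in edgeR without moc_3d replicate 1 (adjusted p = 0.168) or replicate 2 (0.0580) and without moc_1d replicate 2 (0.0547) or replicate 3 (0.167), with log2 fold changes from 0.71 to 0.95 over the 14 such fits. It was also lost where the equal columns were kept as labelled (0.65, adjusted p = 0.356), or once in moc_1d (0.72, adjusted p = 0.159). The same held in edgeR with the replicate number as a block in the fit (0.74, adjusted p = 0.0578).

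WRKY15 and WRKY7 were not called between the control groups. WRKY15 had 60.4, 53.8 and 61.2 CPM in moc_3d, against 53.6, 49.1 and 62.5 CPM in moc_1d. WRKY7 had 15.5, 21.7 and 16.6 CPM in moc_3d, against 13.4, 16.5 and 17.2 CPM in moc_1d. Control libraries of both durations overlapped for both genes, with log2 fold changes of 0.09 ± 0.09 for WRKY15 and 0.21 ± 0.15 for WRKY7 (SE, edgeR, adjusted p = 0.825 and 0.718). WRKY18 overlapped as well, with 12.3, 6.78 and 6.34 CPM in moc_3d, against 6.04, 8.66 and 10.7 CPM in moc_1d. That a gene passed in ethanol seedlings and not in controls does not show a difference between them, and the test of that difference follows with the ethanol responses.

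At an unadjusted p under 0.05 in edgeR, 5 of 36 members were past the threshold between the control groups, all positive (13.9%, against 9.34% of all genes in either direction and 5.03% positive). WRKY33, WRKY40 and WRKY53 are described here because of their values. WRKY33 (AT2G38470), a MAP kinase substrate that drives camalexin synthesis and resistance to Botrytis, had 64.0, 40.3 and 41.5 CPM in moc_3d, against 24.6, 33.1 and 31.3 CPM in moc_1d. WRKY40 (AT1G80840), the partner of WRKY18, had 39.0, 13.1 and 16.4 CPM in moc_3d, against 11.5, 11.0 and 4.59 CPM in moc_1d. WRKY53 (AT4G23810), a regulator of leaf senescence, had 8.23, 8.16 and 14.6 CPM in moc_3d, against 4.99, 7.42 and 6.72 CPM in moc_1d. None of the 3 overlapped between the groups, but 1 moc_3d library of each stood far above the other two, replicate 1 for WRKY33 and WRKY40 and replicate 4 for WRKY53.

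The log2 fold changes between control groups were 0.71 ± 0.26 for WRKY33, 1.23 ± 0.45 for WRKY40 and 0.73 ± 0.23 for WRKY53 (SE, edgeR, adjusted p = 0.410, 0.411 and 0.152). WRKY11 was the fifth gene, with 0.24 ± 0.11 and overlapping libraries. These loci share 26 bases (WRKY33), 51 bases (WRKY40) and 341 bases (WRKY53) with a counted gene on the opposite strand, and a strand setting was not given in the sources used here, so reads in the overlaps cannot be told apart. On the lower side, libraries of WRKY65, WRKY45 and WRKY75 did not overlap between moc_3d and moc_1d, none with an unadjusted p under 0.05. In all, 7 members did not overlap (19.4%), against 15.7% of all genes. Of the 36 log2 fold changes 21 were positive (58.3%), against 49.6% of all genes.

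The duration comparisons in ethanol and in control seedlings share no library. WRKY22 was the only member called in both without a replicate block, as were 0.233% of all genes. With the replicate number as a block in the fit, WRKY22 was not called between control groups and WRKY33 was called in both. The log2 fold changes had the same sign in 18 of 36 members (50%), against 56.7% of all genes. Members positive in both were 11 (30.6%, against 28.1% of all genes), WRKY22, WRKY33, WRKY40, WRKY53, WRKY7, WRKY15, WRKY18, WRKY44, WRKY6, WRKY1 and WRKY28. WRKY46 was furthest apart between them in opposite directions, at 0.73 ± 0.35 in ethanol and -0.32 ± 0.39 in control seedlings (SE).

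**Figure D2:**
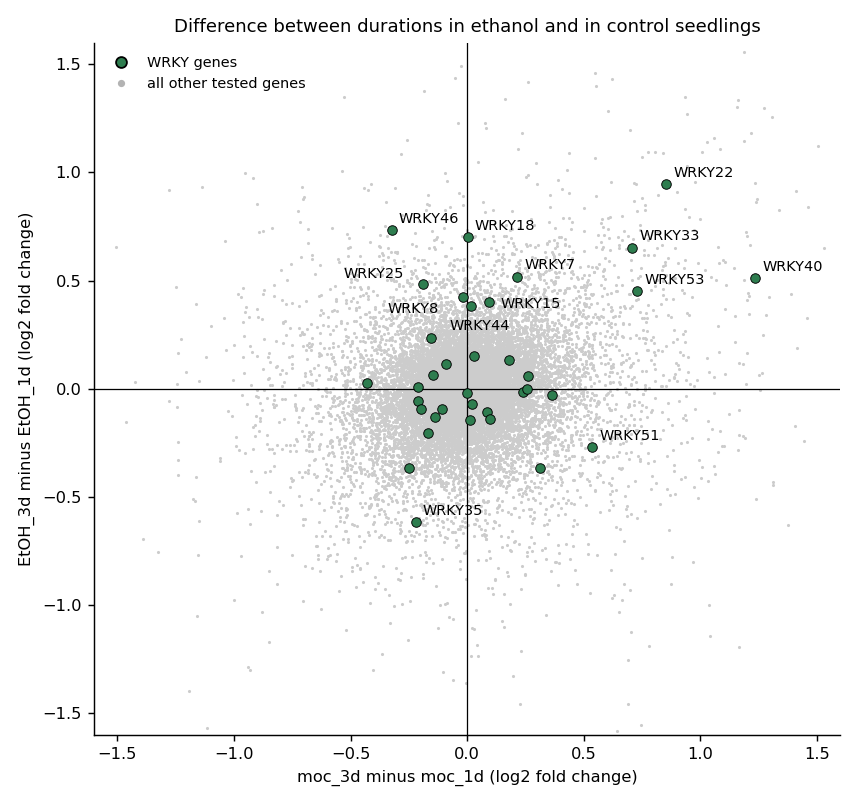
Log2 fold change of 3 d minus 1 d in ethanol seedlings (vertical axis) against that in control seedlings (horizontal axis), for the 36 tested WRKY genes and all other tested genes, of which 28 of 18419 lie outside the axes. WRKY22, WRKY33, WRKY40 and WRKY53 lie to the upper right, while WRKY18 and WRKY46 lie high on the vertical axis and near or left of 0 on the horizontal one.

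A list of 14 touch and wound genes was read beside the durations, and 13 of them were tested. Their summed level was 357 to 483 CPM in EtOH_3d, 278 to 595 CPM in moc_3d, 172 to 307 CPM in EtOH_1d and 206 to 256 CPM in moc_1d. TCH3, TCH4 and TCH2 were the highest tested genes of the list in every library and weigh most in this sum. They had 187, 135 and 71.2 CPM of the 595 CPM in moc_3d replicate 1. In EtOH_1d replicate 4 they had 62.0, 27.0 and 24.2 CPM of the 172 CPM. None of the 14 was at 0 in the libraries of 3 d, and at most 1 was at 0 in a library of 1 d. Between control groups 2 of 13 were called higher, against 0.842% of all genes in either direction and 0.527% on the higher side. They were JAZ7 (2.45 ± 0.36, SE, edgeR, adjusted p = 3.44e-05) and LOX4 (2.24 ± 0.45, adjusted p = 0.00313). The list median was 0.74, against -0.0018 over all genes. JAZ7 is a jasmonate repressor and LOX4 an enzyme of jasmonate synthesis. Between ethanol groups 1 of 13 was called, against 1% of all genes in either direction and 0.635% on the higher side. It was JAZ7 (2.67 ± 0.30, SE, edgeR, adjusted p = 3.25e-08), which was not called with the equal library kept once in moc_1d (adjusted p = 0.0510). The list median there was 0.56. Between control groups, LOX4 was no longer called in edgeR without moc_3d replicate 1 (1.53, adjusted p = 0.243) or moc_1d replicate 2 (1.87, adjusted p = 0.0776), or with the equal columns kept as labelled (1.87, adjusted p = 0.169). JAZ7 was no longer called between control groups where the equal columns were kept as labelled (1.55, adjusted p = 0.599) or once in moc_1d (1.58, adjusted p = 0.538).

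The library moc_3d replicate 1 had the highest touch and wound sum, 595 CPM against 368 and 278 CPM in the other moc_3d libraries. Replicate 1 was also the highest of EtOH_3d (483 CPM) and of EtOH_1d (307 CPM). Replicate 4 was the lowest of each group, at 357 CPM in EtOH_3d, 278 CPM in moc_3d, 172 CPM in EtOH_1d and 206 CPM in moc_1d. What this order by replicate number comes from was not tested. WRKY40, WRKY6, WRKY11 and WRKY17 had their highest value of all 14 libraries in moc_3d replicate 1, 4 of 36 members (11.1%), against 10.2% of all genes. There, WRKY33 was exceeded only by its 67.1 CPM in EtOH_3d replicate 1. Among the 7 libraries of 3 d, WRKY22 was at 18.8 to 20.4 CPM in the 3 with the highest sums (442 to 595 CPM) and at 14.4 to 15.9 CPM in the other 4 (278 to 416 CPM). Among the 7 libraries of 1 d the order ran the other way at the ends, with 12.9 CPM at the lowest sum (172 CPM) and 7.01 CPM at the highest (307 CPM). Without moc_3d replicate 1, 0 members were called between control groups in edgeR, 4 were called between ethanol groups, and 0 were called for ethanol at either duration. In that fit the calls over all genes fell as well, from 155 to 67 between control groups and from 102 to 43 for ethanol at 3 d. What part the touch and wound genes have in the WRKY differences between durations was not tested.

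**Figure D3:**
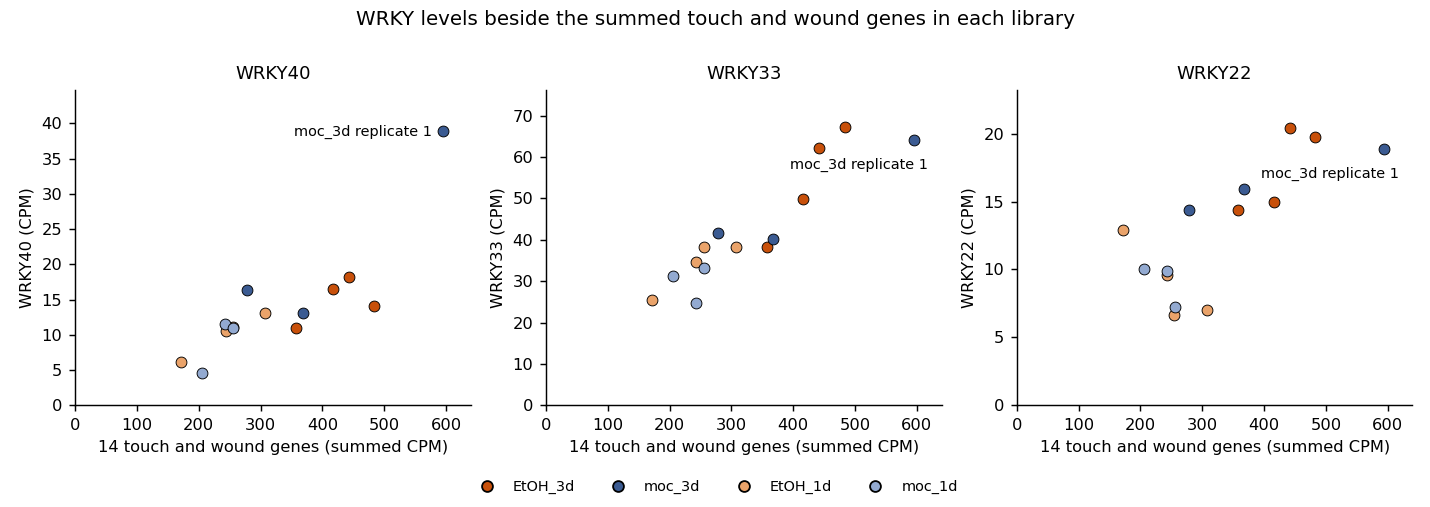
Level of WRKY40, WRKY33 and WRKY22 in CPM (vertical axes) against the summed CPM of 14 touch and wound genes (horizontal axes), with each of the 14 libraries as a point coloured by group. The library moc_3d replicate 1, at 595 summed CPM, holds the highest WRKY40 value at 39.0 CPM, whereas WRKY22 is at 14.4 CPM or more in each library of 3 d and at 12.9 CPM or less in each library of 1 d.

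Genes known to work with WRKY factors were read beside the durations in 3 lists, against 1% of all genes called between ethanol groups and 0.842% between control groups. Of the VQ proteins, which bind WRKY domains, 13 of 14 were tested and 0 were called in either duration comparison. SIB1, a VQ partner of WRKY33, had 27.1, 12.2 and 16.2 CPM in moc_3d, against 11.0, 9.28 and 7.87 CPM in moc_1d, without overlap but with an edgeR adjusted p of 0.176. Of 14 immune receptors and MAP kinases, 1 was called, MPK3 between control groups. MPK3, a kinase that phosphorylates WRKY33, had 88.5, 75.8 and 78.0 CPM in moc_3d, against 61.8, 66.8 and 64.8 CPM in moc_1d (0.32 ± 0.08, SE, edgeR, adjusted p = 0.0429), but lost that call in 7 of the 14 fits that left out 1 library. The edgeR adjusted p of MPK3 was 0.365 without moc_3d replicate 1, 0.0686 without moc_3d replicate 4, 0.245, 0.0813 and 0.126 without moc_1d replicates 2, 3 and 4, and 0.0504 and 0.0503 without EtOH_1d replicates 1 and 3. It was also not called with the equal columns kept as labelled (adjusted p = 0.400), once in moc_1d (0.0611) or once in moc_3d (0.232).

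Of 16 genes known as WRKY targets 13 were tested, and 2 were called higher between ethanol groups and 0 between control groups. PHI-1, an EXORDIUM-like extracellular protein, had 14.9, 6.45, 11.3 and 8.51 CPM in EtOH_3d, against 4.65, 3.44, 5.35 and 2.83 CPM in EtOH_1d (1.34 ± 0.27, SE, edgeR, adjusted p = 0.00748), and was not called with the equal library kept once in moc_1d (adjusted p = 0.0718). RRTF1, an ethylene-response type factor of redox signalling that WRKY40 binds, had 0.558, 4.03, 3.47 and 2.48 CPM in EtOH_3d, against 0.186, 0, 0.238 and 0 CPM in EtOH_1d (edgeR, adjusted p = 0.0290). Both were higher at 3 d without overlap. The RRTF1 values of EtOH_1d lie at or below what 3 counts give in a library (0.188 to 0.530 CPM). Its 0.558 CPM in EtOH_3d replicate 1 lies near that level too, since 3 counts give 0.550 CPM there. The RRTF1 call was lost in 8 of the 14 fits that left out 1 library. The edgeR adjusted p of RRTF1 was 0.0796, 0.0981 and 0.0861 without EtOH_3d replicates 2, 3 and 4, 0.125, 0.0946, 0.0912 and 0.104 without EtOH_1d replicates 1, 2, 3 and 4, and 0.0523 without moc_1d replicate 4. It was also not called with the equal columns kept as labelled (adjusted p = 0.0791) or once in moc_3d (0.0863). FRK1, PAD3 and the other tested targets were not called between durations.

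The main question of the design was the response to ethanol. After 3 d of ethanol 0 of 36 WRKY genes were called in edgeR, against 0.554% of all genes in either direction, and DESeq2 called 0 as well. At an unadjusted p under 0.05 edgeR gave 4 members, all positive, and DESeq2 gave 3, against 8.82% of all genes in edgeR (4.75% positive). The 4 were WRKY25 of group I, WRKY15 of subgroup IId, and WRKY45 and WRKY75 of subgroup IIc. WRKY25 (AT2G30250), which acts with WRKY26 and WRKY33 in heat tolerance, had 11.5, 12.4, 19.1 and 18.8 CPM in EtOH_3d, against 10.1, 10.5 and 11.5 CPM in moc_3d. The libraries were separated by a narrow gap, and EtOH_3d replicates 3 and 4 stood above the rest. Its log2 fold change was 0.54 ± 0.19 (SE, edgeR, adjusted p = 0.271).

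WRKY15 had a log2 fold change of 0.25 ± 0.09 after 3 d of ethanol (SE, edgeR, adjusted p = 0.284). Its EtOH_3d libraries, 65.8 CPM or more, all lay above its moc_3d libraries, 61.2 CPM or less. WRKY45 and WRKY75 are both known in phosphate starvation, WRKY45 as an activator of the phosphate transporter PHT1;1 and WRKY75 also in root hairs and senescence. WRKY45 (AT3G01970) had 8.74, 5.64, 10.6 and 11.0 CPM in EtOH_3d, against 6.59, 5.81 and 6.08 CPM in moc_3d, where EtOH_3d replicate 2 lay below all controls (0.58 ± 0.22, SE, edgeR, adjusted p = 0.345). WRKY75 (AT5G13080) had 8.00, 10.5, 9.93 and 7.44 CPM in EtOH_3d, against 6.04, 6.64 and 6.86 CPM in moc_3d, with no overlap (0.44 ± 0.21, SE, edgeR, adjusted p = 0.533). PHT1;1 itself had a log2 fold change of -0.16 ± 0.08 (SE, edgeR, adjusted p = 0.546).

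Libraries did not overlap between EtOH_3d and moc_3d in 4 members (11.1%, against 7.75% of all genes in either direction and 4.16% on the higher side), WRKY15, WRKY25, WRKY75 and WRKY65, each higher in ethanol seedlings. Log2 fold changes of the 36 ran from -0.58 ± 0.42 for WRKY40 to 0.75 ± 0.55 for WRKY8 (SE), with a median of 0.07 against -0.0011 over all genes, and 21 were positive (58.3%, against 49.8% of all genes) and 15 negative. WRKY40 had 14.1, 18.3, 16.5 and 11.0 CPM in EtOH_3d, all below the 39.0 CPM of moc_3d replicate 1 and on both sides of the 13.1 and 16.4 CPM of the other moc_3d libraries. The 95% intervals of 30 of the 36 members lay within 1 log2 unit on either side of 0. The widest was that of WRKY8, from -0.35 to 1.85, a gene at 1.06 to 3.22 CPM in EtOH_3d and 0.517 to 1.66 CPM in moc_3d.

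**Figure D4:**
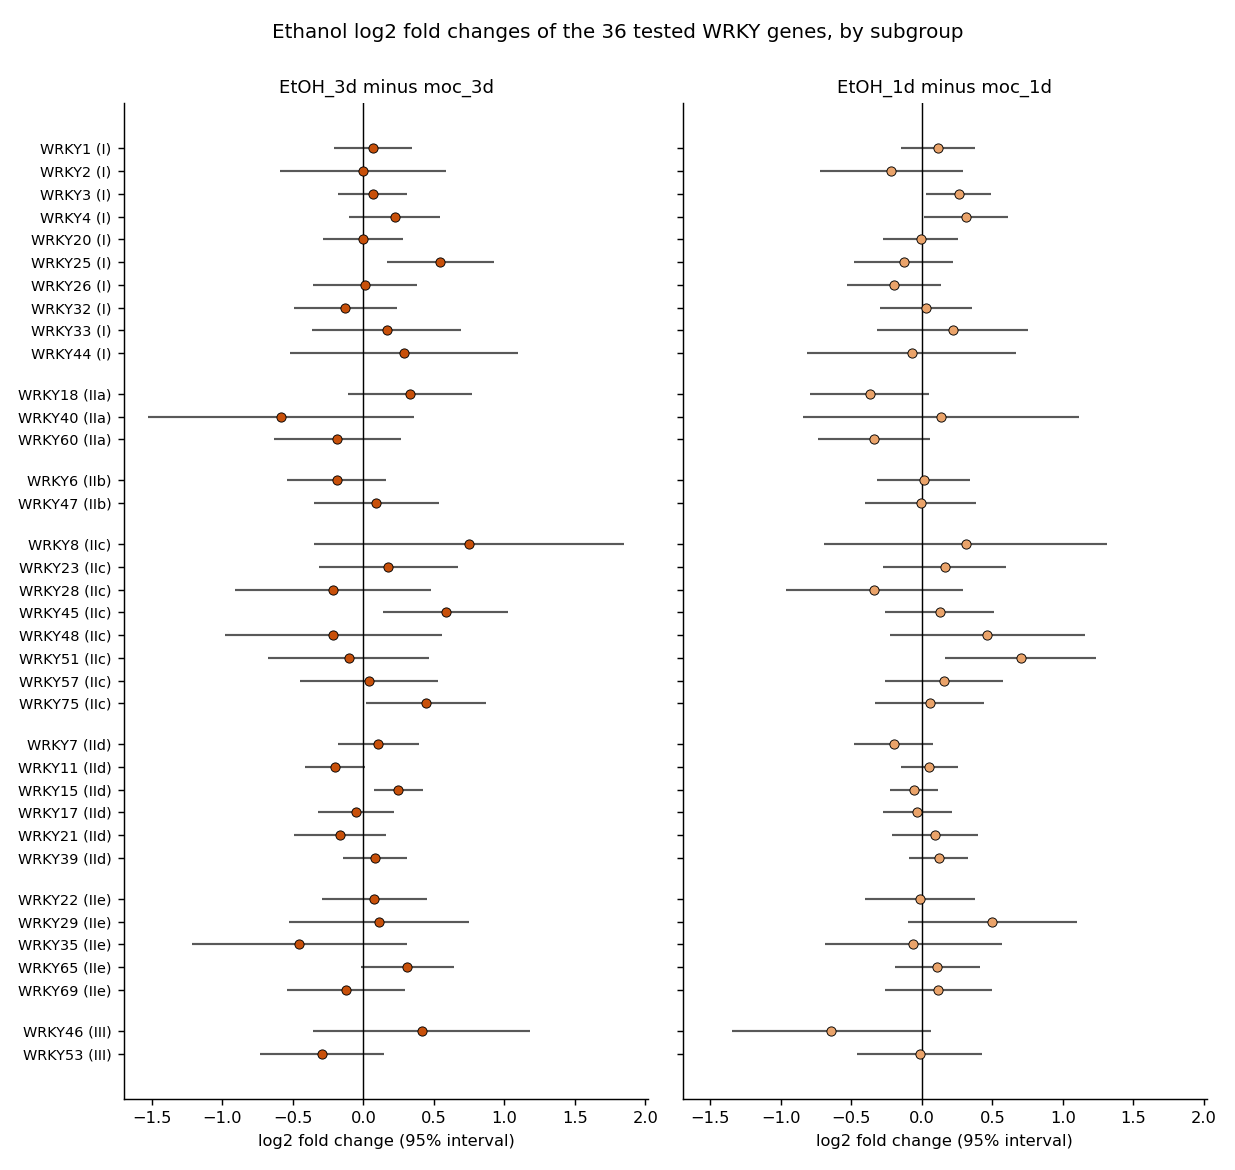
Log2 fold change (points) with 95% intervals (lines) of the 36 tested WRKY genes by subgroup, for EtOH_3d minus moc_3d on the left and EtOH_1d minus moc_1d on the right. At 3 d the intervals of WRKY25, WRKY45, WRKY75 and WRKY15 lie above 0 and at 1 d those of WRKY51, WRKY3 and WRKY4, all before adjustment for 18419 genes.

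After 1 d of ethanol 0 of 36 WRKY genes were called in edgeR, as were 0% of all genes, and DESeq2 called 0 members. At an unadjusted p under 0.05 edgeR gave 3 members and DESeq2 gave 2, all 3 positive, against 4.32% of all genes in edgeR (2.55% positive). WRKY51 (AT5G64810) of subgroup IIc, which with WRKY50 represses jasmonate signalling, had 5.03, 4.70, 4.40 and 5.76 CPM in EtOH_1d, against 2.45, 3.09 and 3.94 CPM in moc_1d. The libraries did not overlap (0.70 ± 0.27, SE, edgeR, adjusted p = 0.989). At 3 d they did, with 2.98, 2.42, 5.67 and 4.96 CPM in EtOH_3d, against 3.48, 4.15 and 5.56 CPM in moc_3d.

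WRKY3 and WRKY4, a pair of related group I factors in resistance to necrotrophic fungi, were the other two. WRKY3 (AT2G03340) had 26.9, 33.6, 27.1 and 26.2 CPM in EtOH_1d, against 22.6, 24.0 and 24.1 CPM in moc_1d, and WRKY4 (AT1G13960) had 13.4, 16.5, 15.7 and 14.2 CPM in EtOH_1d, against 11.1, 12.8 and 11.8 CPM in moc_1d. Neither overlapped, and the log2 fold changes were 0.26 ± 0.11 for WRKY3 and 0.31 ± 0.15 for WRKY4 (SE, edgeR, adjusted p = 1.00 for both). At 3 d both overlapped, with 23.1 to 29.8 CPM for WRKY3 in EtOH_3d and 22.0 to 27.9 CPM in moc_3d, and 10.2 to 16.1 CPM for WRKY4 in EtOH_3d and 11.5 to 12.4 CPM in moc_3d.

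WRKY46 (AT2G46400) of group III, a factor in basal resistance and osmotic stress, had 1.74, 1.63, 1.90 and 1.09 CPM in EtOH_1d, against 2.71, 2.16 and 2.62 CPM in moc_1d. All ethanol libraries lay below all controls (-0.64 ± 0.35, SE, edgeR, adjusted p = 1.00). At 3 d its values were 3.91, 2.42, 2.21 and 2.13 CPM in EtOH_3d, against 1.46, 2.35 and 2.07 CPM in moc_3d. Libraries did not overlap at 1 d in 4 members (11.1%, against 6.12% of all genes), WRKY51, WRKY3, WRKY4 and WRKY46. The median log2 fold change of the 36 was 0.04, against 0.0031 over all genes, with 20 positive (55.6%, against 51% of all genes) and 16 negative.

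**Figure D5:**
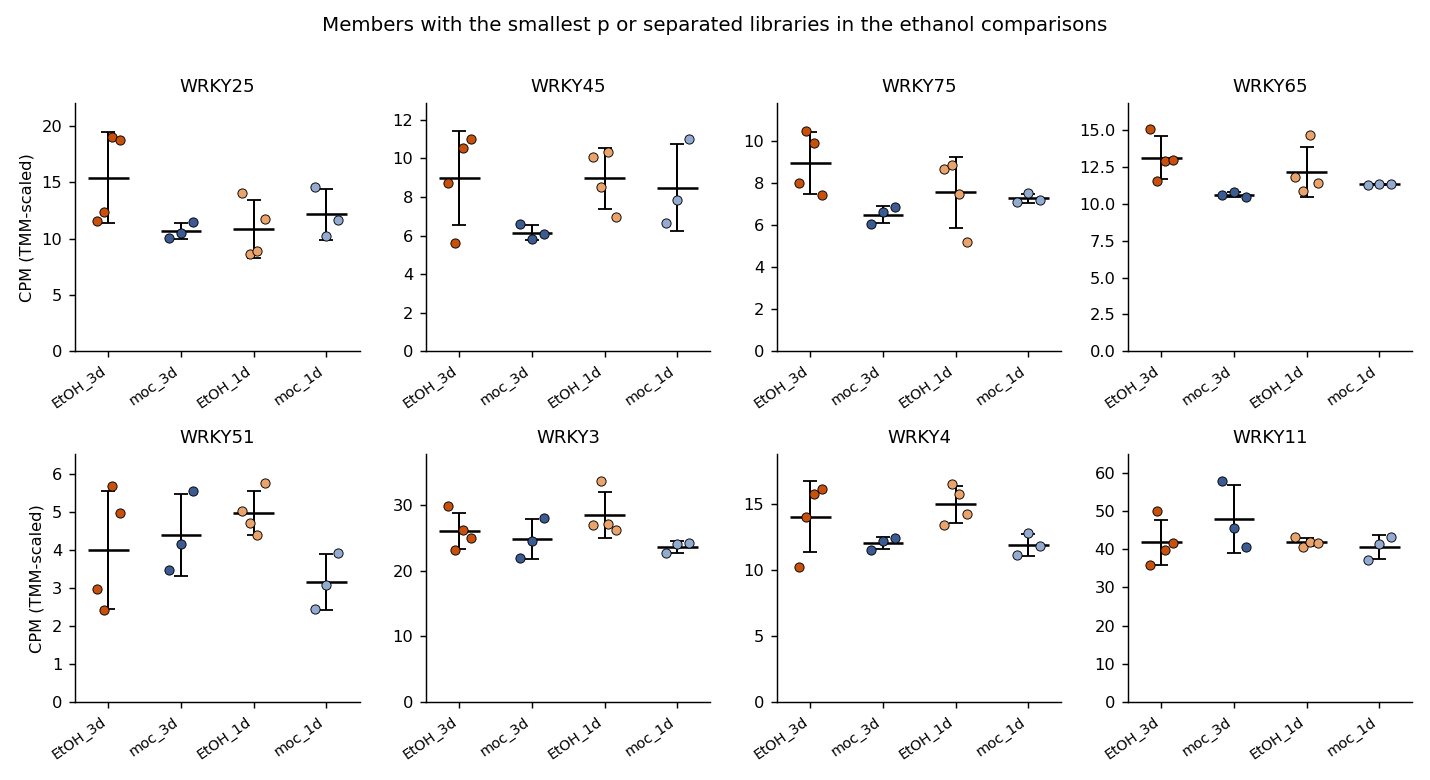
Levels of 8 WRKY genes in CPM, with each library as a point, the horizontal bar as the group mean and the whiskers as 1 SD (n = 4, 3, 4 and 3 from left to right). WRKY25, WRKY75 and WRKY65 lie higher in EtOH_3d than in moc_3d without overlap, and WRKY51, WRKY3 and WRKY4 lie higher in EtOH_1d than in moc_1d without overlap.

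The response at 3 d minus the response at 1 d tests whether ethanol acted alike at both durations, and equally whether the durations differed alike in ethanol and control seedlings. In edgeR 0 of 36 members were called, against 0.0434% of all genes in either direction, and DESeq2 called 0. At an unadjusted p under 0.05 edgeR gave 5 members and DESeq2 gave 4, against 5.56% of all genes in edgeR. WRKY25 (0.67 ± 0.26), WRKY15 (0.30 ± 0.12), WRKY18 (0.70 ± 0.30) and WRKY46 (1.06 ± 0.52) had a higher response at 3 d and WRKY51 (-0.80 ± 0.39) a lower one (SE, edgeR, adjusted p between 0.728 and 0.888). WRKY25 had 14.1, 8.68, 8.92 and 11.7 CPM in EtOH_1d, against 14.6, 10.2 and 11.6 CPM in moc_1d, and so overlapped at 1 d. WRKY45 overlapped at 1 d too, with 10.1, 8.50, 10.3 and 6.96 CPM in EtOH_1d, against 6.66, 7.83 and 11.0 CPM in moc_1d. WRKY75 had 8.69, 8.86, 7.49 and 5.22 CPM in EtOH_1d, on both sides of its 7.09, 7.53 and 7.22 CPM in moc_1d.

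The difference of responses was 0.09 ± 0.27 for WRKY22, with a 95% interval from -0.44 to 0.63, and 0.31 ± 0.20 for WRKY7, with an interval from -0.10 to 0.71 (SE, edgeR, adjusted p = 0.994 and 0.944). WRKY22 responded to ethanol at neither duration beyond its spread, with 0.08 ± 0.18 at 3 d and -0.01 ± 0.19 at 1 d (SE, edgeR, adjusted p = 0.941 and 1.00).

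By subgroup, the ethanol values showed no subgroup in which all tested members had the same sign at both durations. In group I, 7 of 10 members were positive at 3 d and 5 at 1 d, from -0.13 for WRKY32 to 0.54 for WRKY25 at 3 d and from -0.22 for WRKY2 to 0.31 for WRKY4 at 1 d. In subgroup IIa, WRKY60 was negative at both, at -0.18 ± 0.23 and -0.34 ± 0.20 (SE), while WRKY18 and WRKY40 each had opposite signs at 3 d and 1 d. In IIb, WRKY6, a repressor of PHO1, and WRKY47 lay between -0.19 and 0.09. In IIc, 5 of 8 were positive at 3 d and 7 of 8 at 1 d, with WRKY28 negative at both. In IId, 3 of 6 were positive at each duration, and in IIe 3 of 5 at each. WRKY29, which acts with WRKY22 below FLS2, had 0.11 ± 0.32 at 3 d and 0.50 ± 0.30 at 1 d (SE). WRKY44, known as TTG2 for its part in trichomes and seed coat, had 0.29 ± 0.40 and -0.07 ± 0.37 (SE), on 6 to 32 counts per library.

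Partners, receptors and targets were not called in the ethanol comparisons either. At 3 d the smallest p in each list belonged to MKS1 (0.36 ± 0.20) and VQ4 (0.16 ± 0.09) among VQ proteins, to BIK1 (0.47 ± 0.16) and FLS2 (0.40 ± 0.21) among receptors and kinases, to PHT1;1 and CYP81F2 (0.22 ± 0.18) among targets, and to JAZ7 (0.49 ± 0.27) and JAZ10 (0.35 ± 0.29) among touch and wound genes (SE, edgeR, adjusted p between 0.250 and 0.798). At 1 d they belonged to JAV1 (0.47 ± 0.23) and VQ9 (0.27 ± 0.21), to MKK5 (-0.21 ± 0.13) and CERK1 (-0.22 ± 0.14), to RRTF1 (-1.43 ± 1.27) and CYP81F2 (0.17 ± 0.17), and to JAZ10 (-0.74 ± 0.27) and LOX4 (0.52 ± 0.47), with edgeR adjusted p of 0.958 or more. List medians lay between -0.13 and 0.07 in both comparisons. Among root markers the smallest p belonged to NRT2.1 and IRT1 at 3 d and to CASP1 and COBL9 at 1 d, and among leaf markers to RCA and PSAD1 at 3 d and to LHCB2.1 and PSBO1 at 1 d, none called.

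The spread between replicates sets how small a difference could be called. The median biological coefficient of variation was 0.134 over the 36 members, from 0.0732 to 0.378, against 0.107 over all genes tested. The 95% intervals of the ethanol log2 fold changes had a median width on each side of 0.43 at 3 d and 0.39 at 1 d, the narrowest being 0.18 and 0.17. Of the 42 loci, 9 overlap a counted gene on the opposite strand, WRKY1, WRKY2, WRKY4, WRKY33, WRKY40, WRKY29, WRKY69, WRKY41 and WRKY53, and no member carried counts equal to those of another gene.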

How the data were processed

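RNA of whole seedlings was sequenced by Lasy-Seq from 200 ng of total RNA per library, per the labels' protocols. Per the submitters' processing notes, the named tools include HISAT2, featureCounts, Trimmomatic, DESeq2 and bcl2fastq, and the build is TAIR10. Versions, roles and a strand setting were not given in the sources used here. Deposited by the authors, the count table holds whole read counts of 27416 genes without normalization. A second deposited table, a normalized signal, served only to check the equal columns. Groups and replicate numbers come from the sample titles.

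The counts entered edgeR 4.0.16 under R 4.3.3 (filterByExpr by group, TMM, robust quasi-likelihood fit of the 4 groups, two-sided tests, Benjamini-Hochberg adjustment over 18419 genes, threshold 0.05). Total counts were 3695511 to 15943927, so that 3 counts equal 0.188 to 0.812 CPM. Mean chi-square per gene between other libraries of 1 group was 2.71 to 5.68. Alternatives were the equal columns kept, DESeq2 1.42.0, other size factors, no filter, only the compared groups, a replicate block and leaving out each library. Loci and windows come from TAIR10.1, whose chromosome 1 has 30427671 bases. The members and the lists of partners, targets and markers were chosen with earlier results of these data known. Values in every library were printed for called members and for the 4 with the smallest p in the ethanol comparisons and in their difference, and list genes were named where called or among the 2 smallest p in an ethanol comparison. WRKY33, WRKY40, WRKY53, WRKY57, WRKY39, WRKY65, WRKY11, SIB1, FRK1 and PAD3 were named after their values were seen. Other members of the family were not analysed here.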

Additional observations from a re-analysis of the deposited data

Results flagged for a closer look

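In 3 of 72 groups of 4 libraries examined (36 genes in each ethanol group), 1 library lay far from the other 3 by Dixon's criterion, which chance meets in about 1 in 20 groups. WRKY46 had 3.91 CPM in EtOH_3d replicate 1, against 2.13 to 2.42 CPM in the other EtOH_3d libraries. WRKY3 had 33.6 CPM in EtOH_1d replicate 2, against 26.2 to 27.1 CPM in the other EtOH_1d libraries. WRKY48, a repressor of basal defence, had 5.06 CPM in EtOH_1d replicate 2, against 2.50 to 2.85 CPM in the other EtOH_1d libraries. The control groups have 3 libraries and were not examined this way.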

How the results depend on the processing

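Under every alternative run, 0 members were called for ethanol at 3 d, for ethanol at 1 d and for the difference of responses. Between ethanol groups, WRKY22 (log2 fold change 0.81 to 1.19) and WRKY15 (0.36 to 0.43) were called in all 23 fits, and 2 to 4 members were called when leaving out 1 library. The 1 member called between control groups fell to 0 with the 16 columns as labelled and with the equal library once in moc_1d, and was 0 to 1 when leaving out 1 library.

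Over all genes, deviations of same-numbered ethanol and control libraries of one duration correlated at -0.08 to 0.03 over 6 pairs, against -0.05 to 0.10 over 18 others. Libraries of 3 d were not compared with those of 1 d in this way. The check therefore cannot settle whether replicate numbers pair the samples across durations. The touch and wound sums were lowest in replicate 4 of each group. With the replicate number as a block, edgeR called 0 members in the 3 ethanol tests, 1 between control groups (WRKY33, with WRKY22 at adjusted p = 0.0578) and 4 between ethanol groups (WRKY33 added).

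Some small log2 fold changes turned sign, none of them called. In moc_3d minus moc_1d, WRKY4 was -0.0198 and WRKY18 -0.0606 with the equal library once in moc_1d, and WRKY18 was -0.104 with the replicate block. Leaving out 1 library, ranges crossed 0 as follows. For moc_3d minus moc_1d they were -0.0327 to 0.0802 (WRKY4), -0.0133 to 0.156 (WRKY3) and -0.33 to 0.18 (WRKY18). For EtOH_1d minus moc_1d they were -0.134 to 0.0303 (WRKY15), -0.311 to 0.0447 (WRKY25), -0.0319 to 0.320 (WRKY45), -0.26 to 0.12 (WRKY22) and -0.0495 to 0.195 (WRKY75). For EtOH_3d minus moc_3d they were -0.00654 to 0.163 (WRKY3), -0.0127 to 0.182 (WRKY22) and -0.33 to 0.11 (WRKY51). For the difference of responses they were -0.169 to 0.0359 (WRKY4) and -0.0424 to 0.334 (WRKY22). For EtOH_3d minus EtOH_1d they were -0.148 to 0.0574 (WRKY4) and -0.0806 to 0.162 (WRKY45).

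Counts over all genes depended more on the processing, and the cause was not tested. For EtOH_3d minus moc_3d the 102 became 66 with 16 columns, 196 with no filter and 43 to 124 when leaving out 1 library. For EtOH_1d minus moc_1d the 0 became 2 with 16 columns or with the equal library once in moc_1d, 28 with no filter, 12 with the block, 16 with the compared groups alone and 0 to 5 when leaving out 1 library. For the difference of responses the 8 became 0 with 16 columns, 4 with the equal library once in moc_1d, 47 with no filter and 1 to 23 when leaving out 1 library. For moc_3d minus moc_1d the 155 became 5 with 16 columns, 19 with the equal library once in moc_1d, 283 with no filter and 67 to 158 when leaving out 1 library. For EtOH_3d minus EtOH_1d the 185 became 313 with no filter and 128 to 234 when leaving out 1 library. Depth limits the 6 members with too few counts, and genes near 3 counts in a library.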
